A study of Mus musculus with 22 samples.

Results

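The genes described here are 6 genes of immunoglobulins and of the B cell receptor: Igha, Igkc, Ighm, Jchain, Cd79a and Cd79b. They were taken as the rows of 3 deposited count tables that carry these gene symbols, and are 6 of the 35255 genes listed in the tables together. All 6 are listed in each of the 3 tables. They were chosen by their knockout and wild-type levels in these same tables, so the differences between these genotypes are given for them as a description, with no test.

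RNA was sequenced from mouse cells with a knockout (KO) of VISTA, an immune checkpoint protein encoded by Vsir, and from wild-type (WT) cells, all of strain background C57BL/6N. The groups are hypoxia KO and hypoxia WT, which are bone marrow myeloid cells at 24 hours of low oxygen (4 libraries each), normoxia KO and normoxia WT, which are such cells at day 4 (4 libraries each), and tumor KO and tumor WT, which are samples of tumor tissue labelled MC38 at day 7 (3 libraries each). The design text speaks of progenitors grown with the cytokines GM-CSF and IL-6 into myeloid-derived suppressor cells (MDSC) for the normoxia cultures, where the replicates are stated to be independent. Nothing says so for the other experiments, where p-values measure the spread between libraries, which may be technical. MC38 is a mouse colon carcinoma line. The labels describe neither the knockout allele nor any purification of cells out of the tumor tissue.

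A B cell that matures into a plasma cell secretes antibody, built of paired heavy and light chains. The heavy chain's constant region gives the class: Ighm encodes the mu chain of IgM, the class made before any switch, and Igha the alpha chain of IgA, the class of mucosal surfaces. Igkc encodes the constant region of the kappa light chain, and Jchain a short protein that links IgA or IgM units into polymers. Cd79a and Cd79b encode the signalling pair of the B cell receptor, and plasma cells are known to carry little of that receptor at their surface. The variable end of each chain comes from a V gene that the B cell picked and joined during its development, so the V genes read in a sample reflect which B cell clones were in it. Myeloid cells are not antibody producers.

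The libraries held 30839108 to 31385825 counts in hypoxia, 23409142 to 23722932 in normoxia, and 19119985 to 23089943 in tumor KO against 27452024 to 31716200 in tumor WT. Vsir stood below WT in every KO library of its experiment, with a ratio of the KO mean to the WT mean of 0.269 in hypoxia, 0.248 in normoxia and 0.258 in tumor. The 10 myeloid identity genes (Lyz2, Itgam, S100a8 and others) summed to 52312 CPM (counts scaled to the library's total) in hypoxia KO and 29581 CPM in hypoxia WT. These sums were 53994 CPM in normoxia KO and 39118 CPM in normoxia WT, and 22726 CPM in tumor KO and 17958 CPM in tumor WT. CPM values are scaled within each table, so levels set across tables carry that limit. In bulk RNA, fewer cells of a type and less RNA per cell cannot be told apart.

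Igha, Igkc and Jchain stood far higher in both KO cultures than in the WT cultures, by about the same factor, and Igha and Jchain had at most 12 counts in any tumor library of either genotype. Igha (chromosome 12, 113254830 to 113260236, minus strand, GRCm38) had 36.2, 31.0, 38.1 and 16.6 CPM in hypoxia KO, against 2.01, 2.72, 2.03 and 5.52 CPM in hypoxia WT. In normoxia it had 22, 16.8, 51.0 and 27.7 CPM in KO, against 1.83, 0.245, 2.67 and 2.20 CPM in WT. Each KO library thus stood above each WT library of its culture, and the raw counts behind the lowest KO values were 510 in hypoxia and 401 in normoxia. The log2 fold change (KO over WT) was 3.31 ± 0.36 (SE) in hypoxia and 4.08 ± 0.47 in normoxia, and the ratio of the mean levels was 9.93 and 16.9. KO replicate 3 was the highest normoxia library and KO replicate 4 the lowest KO library in hypoxia.

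Igkc (chromosome 6, 70726435 to 70726966, plus strand) had 32.1, 45.2, 31.6 and 15.5 CPM in hypoxia KO, against 2.87, 3.62, 2.96 and 4.26 CPM in hypoxia WT. Normoxia KO had 22.7, 14.8, 40.5 and 24.2 CPM, against 1.75, 0.900, 1.53 and 2.53 CPM in normoxia WT. The genotypes did not overlap in either culture, and the log2 fold change was 3.18 ± 0.30 in hypoxia and 3.92 ± 0.34 in normoxia. Jchain (chromosome 5, 88519809 to 88527891, minus strand) had 2.53, 3.53, 2.75 and 1.40 CPM in hypoxia KO, against 0.256, 0.352, 0.312 and 0.345 CPM in hypoxia WT. It had 3.01, 2.39, 6.70 and 4.27 CPM in normoxia KO, against 0.238, 0.0409, 0.170 and 0.540 CPM in normoxia WT. The WT values of Jchain rest on 8 to 11 counts a library in hypoxia and 1 to 13 in normoxia. Its log2 fold change was 3.0 ± 0.30 in hypoxia and 4.02 ± 0.49 in normoxia, close to those of Igha and Igkc.

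Ighm (chromosome 12, 113418558 to 113422730, minus strand) behaved differently, with a high level in every sample and a smaller gap between genotypes. It had 104, 123, 90.9 and 85.6 CPM in hypoxia KO, against 57.4, 61.7, 56.1 and 66.2 CPM in hypoxia WT. In normoxia it had 59.5, 58.0, 54.1 and 79.5 CPM in KO, against 29.3, 33.2, 42.9 and 34.5 CPM in WT. The groups were apart in both cultures, with a log2 fold change of 0.74 ± 0.11 in hypoxia and 0.84 ± 0.14 in normoxia. In the tumor samples Ighm had 56.9, 49.2 and 64.8 CPM in KO, against 44.9, 43.2 and 48.9 CPM in WT. The tumor libraries did not overlap either, though the lowest KO library (49.2 CPM) lay next to the highest WT library (48.9 CPM), and the log2 fold change was 0.32 ± 0.10.

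The receptor chains showed little difference by genotype. Cd79a (chromosome 7, 24897381 to 24902197, plus strand) averaged 1.24 ± 0.195 CPM in hypoxia KO and 1.02 ± 0.290 CPM in hypoxia WT (SD, n = 4 each), with overlapping libraries. In normoxia it averaged 0.972 ± 0.210 CPM in KO and 0.639 ± 0.128 CPM in WT (n = 4 each), and the lowest KO library (0.797 CPM) was just above the highest WT library (0.789 CPM). Its log2 fold change was 0.28 ± 0.23 in hypoxia and 0.60 ± 0.25 in normoxia. Cd79b (chromosome 11, 106311341 to 106314762, minus strand) averaged 6.30 ± 0.459 CPM in hypoxia KO and 6.48 ± 0.385 CPM in hypoxia WT, and 2.60 ± 0.463 CPM in normoxia KO and 2.76 ± 0.627 CPM in normoxia WT (n = 4 each). Its genotypes overlapped in all 3 experiments, and its log2 fold change was -0.04 ± 0.10 in hypoxia, -0.08 ± 0.21 in normoxia and -0.02 ± 0.18 in tumor.

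**Figure D1:**
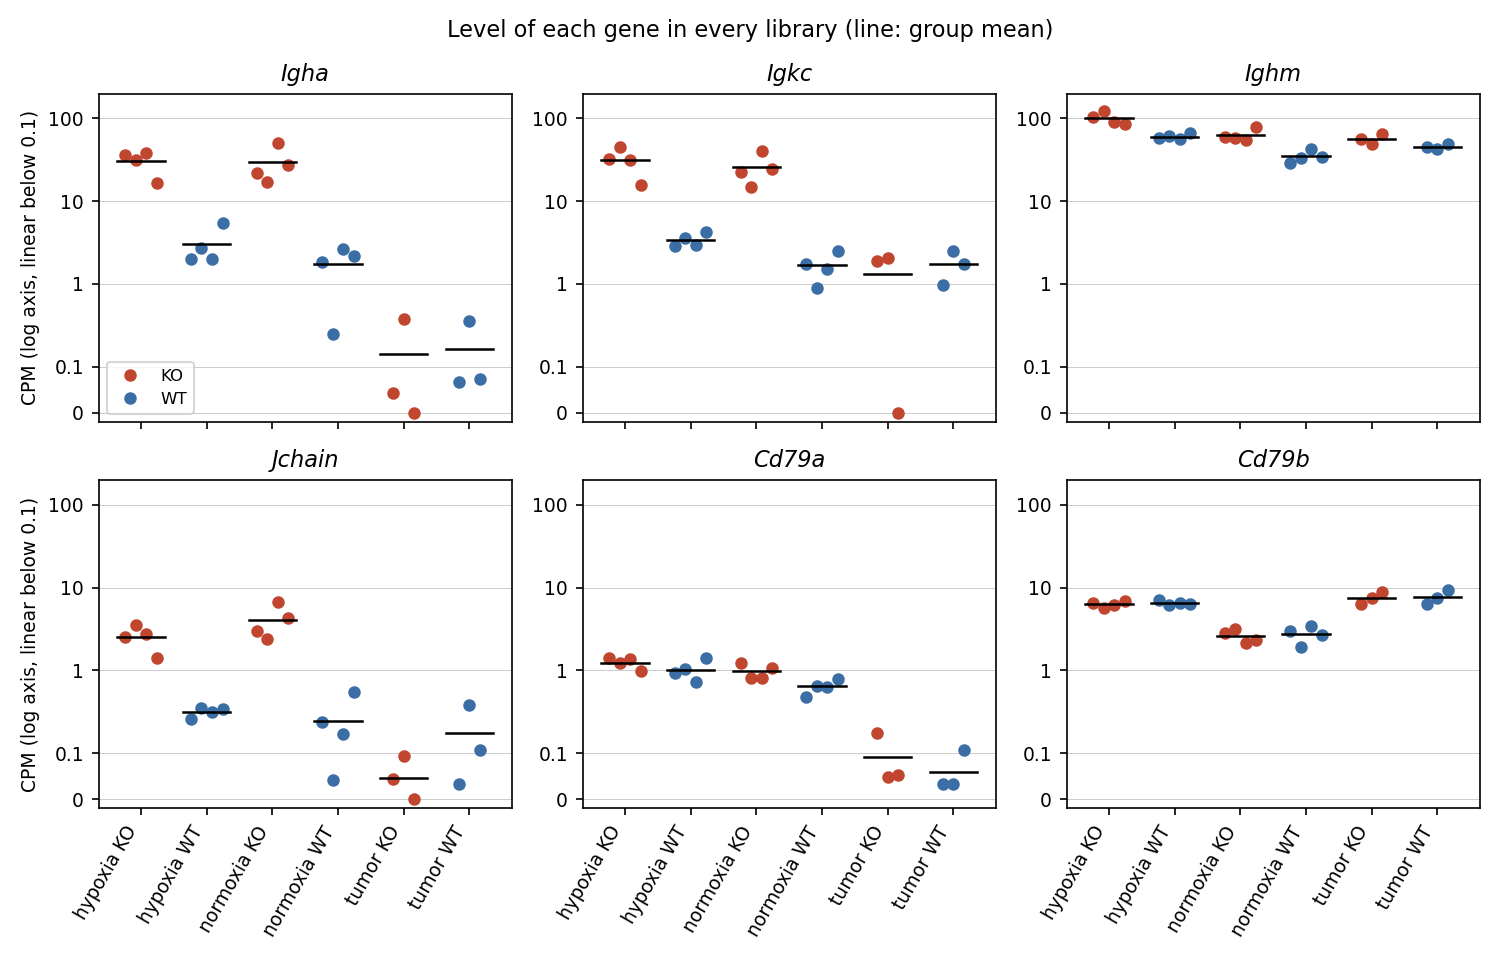
Level of the 6 genes in every library, in CPM on an axis that is logarithmic above 0.1 and linear below it, with KO left of WT for hypoxia, normoxia and tumor and a line at each group mean. Igha, Igkc and Jchain stand apart between KO and WT in the cultures, whereas KO and WT of Cd79b overlap in each experiment. In tumor, Ighm (43.2 to 64.8 CPM) and Cd79b (6.28 to 9.24 CPM) are the members with the highest levels.

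In the tumor samples 3 of the 6 genes (Igkc, Ighm and Cd79b) passed the filter on low counts. Igha had 1, 8 and 0 counts in tumor KO, against 2, 11 and 2 counts in tumor WT, and Jchain had 1, 2 and 0 counts in KO, against 1, 12 and 3 in WT. Cd79a had 4, 1 and 1 counts in tumor KO, against 1, 1 and 3 in WT. Igkc had 43, 44 and 0 counts in tumor KO, against 29, 77 and 48 in tumor WT, with a log2 fold change of -0.37 ± 0.89, or 0.18 ± 0.37 without KO replicate 3. In KO replicate 3 the count of 0 for Igkc, at 19119985 total counts, came with 1257 counts of Ighm. Cd79b had its highest group means in tumor, 7.58 ± 1.27 CPM in KO and 7.66 ± 1.49 CPM in WT (n = 3 each).

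Counted over the 6 genes, every KO library exceeded every WT library for 4 genes in hypoxia (Igha, Igkc, Ighm and Jchain), for 5 in normoxia (these and Cd79a) and for Ighm alone in tumor. Over all genes tested, 16.9% stood higher and 15.7% lower without overlap in hypoxia KO, 10.7% higher and 9.33% lower in normoxia KO, and 13% each way in tumor KO. These comparisons chose the genes, so nothing is read from the counts.

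Per kilobase of exon, Igkc had the highest level of the 6 in the KO cultures, with 58.5 ± 22.8 CPM per kb in hypoxia KO and 48.0 ± 20.3 CPM per kb in normoxia KO (n = 4 each). Ighm followed with 53.5 ± 8.80 and 33.3 ± 6.03 CPM per kb, then Igha with 11.4 ± 3.65 and 11 ± 5.65 CPM per kb. Jchain had 1.01 ± 0.349 and 1.63 ± 0.757 CPM per kb in the same groups. The WT cultures had another order. Ighm led there with 32.0 ± 2.43 CPM per kb in hypoxia WT and 18.6 ± 3.03 CPM per kb in normoxia WT, and Igkc had 6.45 ± 1.22 and 3.15 ± 1.27 CPM per kb.

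Ordered by their mean CPM, the groups ran hypoxia KO, normoxia KO, hypoxia WT, normoxia WT, tumor WT and tumor KO for Igha. For that gene the libraries of neighbouring groups overlapped at each step but that between normoxia KO and hypoxia WT. Igkc had the same first 3 groups, again with the gap after the KO cultures, and Jchain had the 4 culture groups first, with normoxia KO ahead of hypoxia KO. Ighm ran hypoxia KO, normoxia KO, hypoxia WT, tumor KO, tumor WT and normoxia WT, and normoxia KO overlapped hypoxia WT. Cd79a ran hypoxia KO, hypoxia WT, normoxia KO, normoxia WT, tumor KO and tumor WT, with overlap between the first 3 and between the tumor groups. For Cd79b the order followed the experiment and not the genotype, since tumor, hypoxia and normoxia came in turn with KO and WT overlapping within each.

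**Figure D2:**
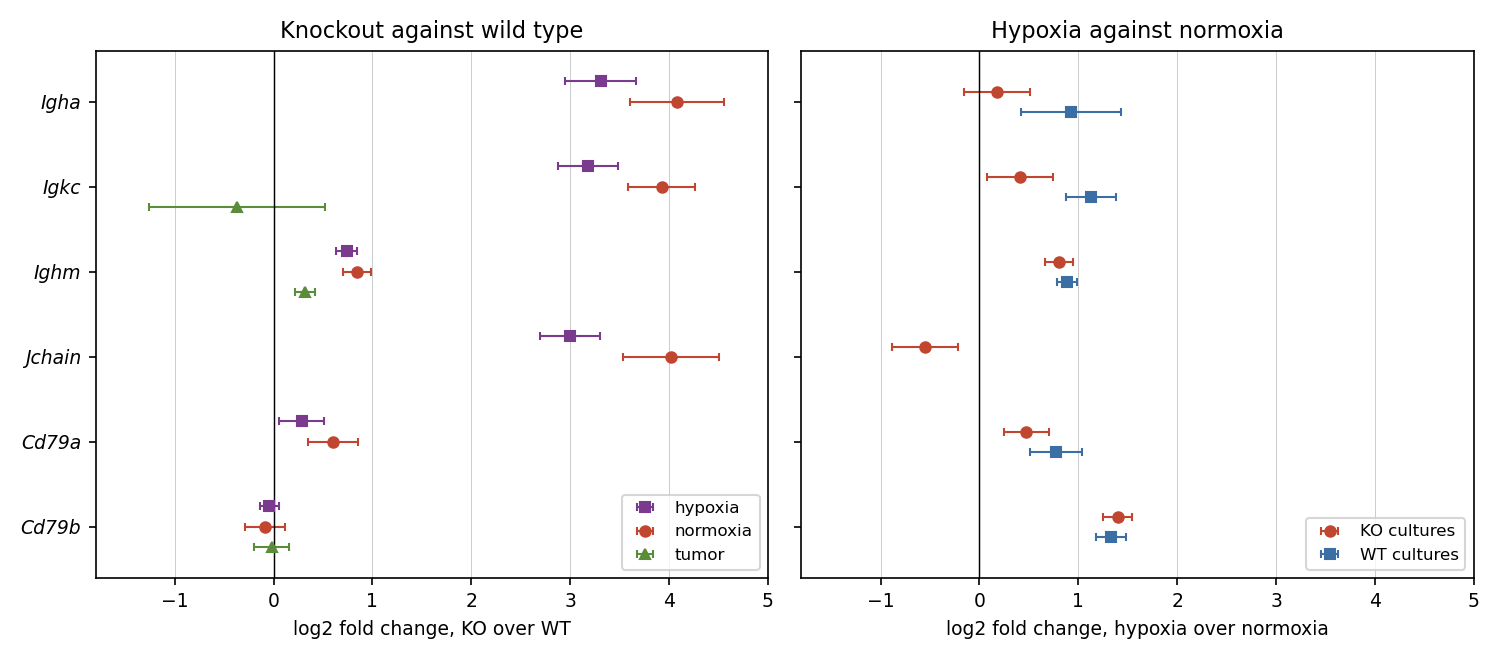
Log2 fold change with its SE (bars) for each gene that passed the filter, KO over WT on the left and hypoxia over normoxia on the right. Igha, Igkc and Jchain lie between 3.0 and 4.08 in the culture comparisons of KO with WT, and Cd79b lies near 0 on the left and at 1.33 and 1.40 on the right.

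The heavy chain constant genes were compared by their share of counts, which does not tell rearranged chains from other transcripts of these genes. Among the counts of 7 heavy chain constant genes (Igha, Ighm, Ighd, Ighg1, Ighg2b, Ighg2c and Ighg3), Igha held 15.5% to 29.0% in hypoxia KO libraries, against 3.30% to 7.62% in hypoxia WT. It held 20.4% to 43.4% in normoxia KO, against 0.730% to 5.95% in normoxia WT. Ighm was the most counted class in every library but held a smaller share in the KO cultures, with 69.3% to 79.8% in hypoxia KO and 46.1% to 70.8% in normoxia KO, against 91.5% to 96.2% in hypoxia WT and 92.3% to 98.9% in normoxia WT. In tumor libraries Ighm held 96.2% to 99.7% in KO and 96.2% to 98.5% in WT, so the other constant genes held few counts there in both genotypes.

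Ighg2b, a heavy chain constant gene of IgG, rose in KO in both. It had 78, 28, 23 and 109 counts in hypoxia KO, against 1, 0, 1 and 1 in hypoxia WT (adjusted p = 0.000327). Counts pooled over the libraries of each group gave a ratio of 80.2 per total counts, with a 95% exact counting interval of 27.1 to 392. That interval covers counting error only and leaves out the spread between libraries. In normoxia it had 202, 107, 138 and 80 counts in KO, against 6, 3, 0 and 0 in WT (log2 fold change 5.88 ± 0.53, adjusted p = 0.000133). Ighg2c, its close relative, rose in normoxia KO with 77, 62, 132 and 27 counts, against 8, 0, 0 and 0 in normoxia WT (log2 fold change 5.22 ± 0.77, adjusted p = 0.0032). In each of these tests the gene passed the filter on low counts through its KO counts, so the p-values are no support. In hypoxia Ighg2c had 0, 0, 2 and 0 counts in KO and 0, 6, 0 and 0 in WT, so the hypoxia KO libraries had 23 to 109 counts of Ighg2b beside at most 2 of Ighg2c. Kappa made up 96.8% to 99.1% of light chain constant counts in hypoxia KO, against 77.4% to 94.1% in hypoxia WT, and 92.8% to 97.1% in normoxia KO, against 95.7% to 100% in normoxia WT. Jchain counts were 0.0700 to 0.114 of the Igha counts in hypoxia KO and 0.0625 to 0.154 in hypoxia WT, and 0.131 to 0.154 in normoxia KO and 0.0635 to 0.245 in normoxia WT.

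**Figure D3:**
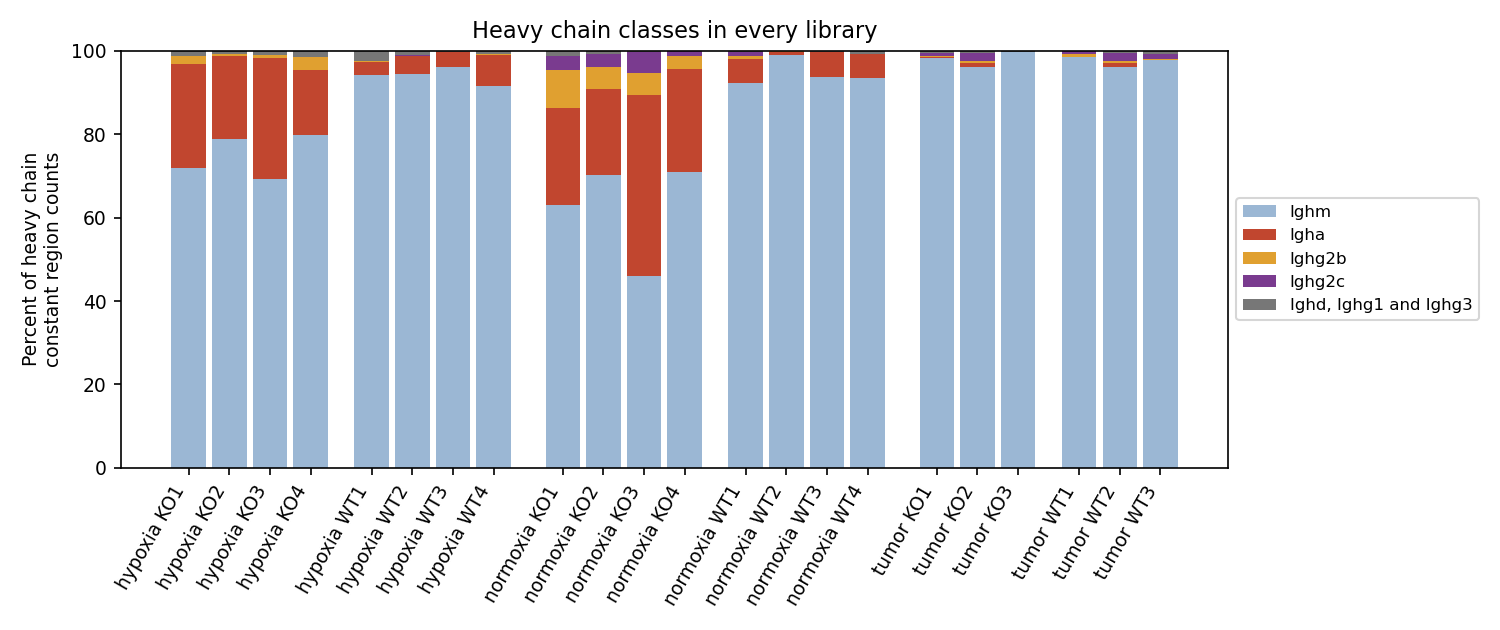
Share of heavy chain constant region counts held by each class in every library, in percent, with KO left of WT in each experiment. Igha takes 15.5% to 43.4% in the KO cultures and at most 7.62% in any WT culture, and Ighg2c is visible in normoxia KO but not in hypoxia KO.

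V genes, which are not among the 6 genes, were looked at next. The tables list 136 annotated V genes in hypoxia, 151 in normoxia and 16 in tumor. Their counts summed to 608, 689, 620 and 417 in hypoxia KO, against 126, 95, 81 and 164 in hypoxia WT. In normoxia they summed to 554, 449, 1015 and 733 in KO, against 111, 77, 140 and 122 in WT. The genotypes did not overlap in either culture, as for Igha and Igkc. At least 3 counts were reached by 55, 41, 57 and 42 V genes in hypoxia KO, against 17, 12, 7 and 20 in hypoxia WT, and by 70, 60, 91 and 74 in normoxia KO, against 17, 9, 15 and 17 in normoxia WT. The counts in the KO cultures were thus spread over 41 to 91 V genes a library.

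Tumor libraries had 11, 2 and 3 V gene counts in KO, against 4, 12 and 24 in WT, although Ighm had 1043 to 1306 counts in KO and 1338 to 1349 in WT. Ighv6-3 had 3, 0 and 2 counts in KO and as many in WT, Iglv1 had 0 in each KO library and 0, 4 and 6 in WT, and the others listed had at most 3 in any library. There were thus 0 to 0.377 heavy V counts per 100 heavy chain constant counts in tumor KO and 0.221 to 0.507 in tumor WT. The cultures had 7.34 to 8.70 in hypoxia KO against 2.19 to 4.16 in hypoxia WT, and 12.6 to 20.2 in normoxia KO against 6.81 to 11.1 in normoxia WT. The KO cultures were higher without overlap in this ratio. Kappa V counts per 100 Igkc counts were 19.8 to 34.8 in hypoxia KO and 24.8 to 48.9 in hypoxia WT, and 47.7 to 60.7 in normoxia KO and 52.8 to 95.5 in normoxia WT, with overlap in both cultures.

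The leading V gene held a larger share in each hypoxia KO library than in each normoxia KO library. The most counted V gene held 10.7%, 14.9%, 17.6% and 13.7% of the V counts in the 4 hypoxia KO libraries, with exact binomial 95% intervals between 8.35% and 20.8%. In normoxia KO it held 4.33%, 6.68%, 4.14% and 4.91%, with intervals between 2.80% and 9.40%. In WT cultures, at 77 to 164 V counts a library, it held 9.15% to 28.4% in hypoxia WT and 11.5% to 18.2% in normoxia WT, and the intervals were wider there. The labels mention no molecular identifiers, so these intervals cover counting error only. Hypoxia and normoxia cultures differ also in labelled time and depth and stand in separate tables, so oxygen cannot be told apart from these here.

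**Figure D4:**
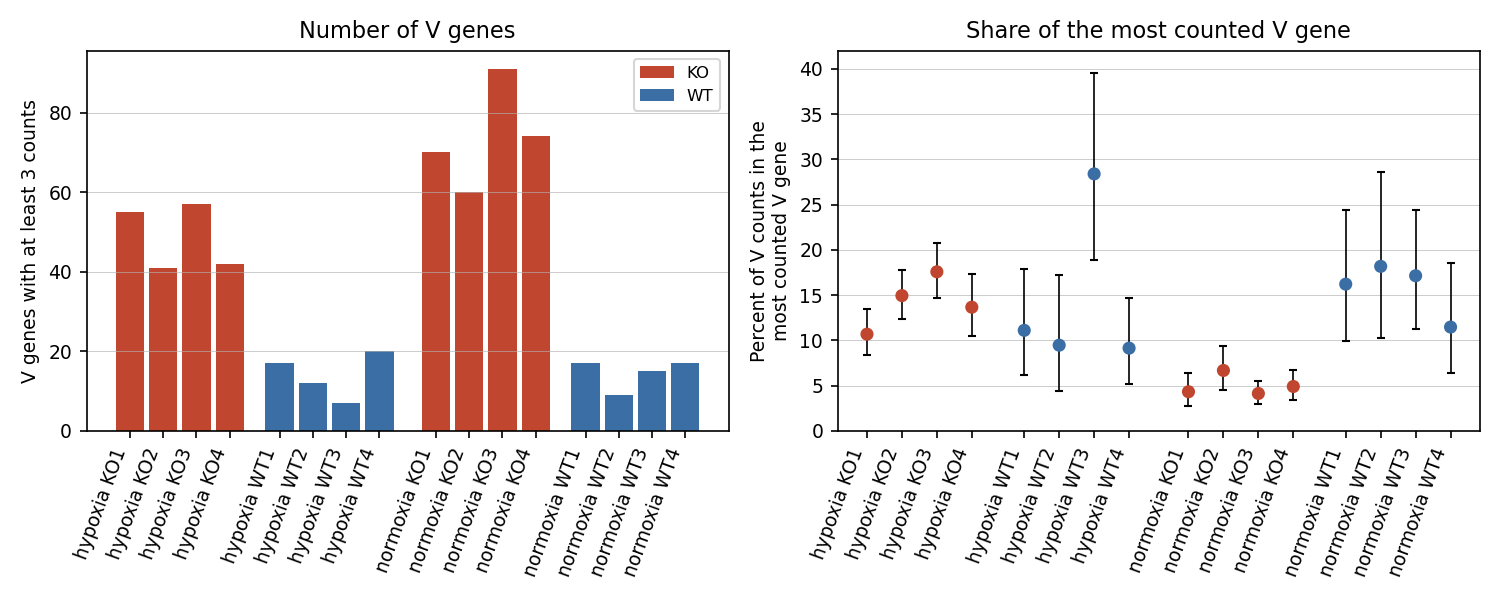
Left, number of V genes with at least 3 counts in each culture library. Right, percent of all V gene counts held by the library's most counted V gene, with exact binomial 95% intervals. KO cultures use 41 to 91 V genes, and the leading V gene holds more of the hypoxia KO libraries (10.7% to 17.6%) than of the normoxia KO libraries (4.14% to 6.68%). Oxygen, labelled time and table cannot be told apart between them.

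A V gene count of 20 in a library, a limit set after the values were seen, was reached by 11 V genes in hypoxia and 17 in normoxia, and by 0 in tumor. The share of such a gene's counts in its most counted library ran from 19.5% to 98.9% in hypoxia, with a median of 57.3%, and from 22.2% to 77.8% in normoxia, with a median of 38.6%. In 1 library only, 20 counts were reached by 7 of the 11 in hypoxia and 12 of the 17 in normoxia. At least 80% of the counts lay in 1 library for 5 of the 11 and 0 of the 17, and the normoxia genes nearest to that limit were Ighv2-5 (77.8%, with 0, 6, 21 and 0 counts in KO) and Igkv9-120 (75.0%, with 2, 0, 21 and 5 in KO). Ighv1-69 was the V gene common to both sets. It had 23, 25, 23 and 24 counts in hypoxia KO, against 8, 6, 4 and 15 in hypoxia WT, and 19, 30, 41 and 36 in normoxia KO, against 18, 10, 24 and 7 in normoxia WT, so it was spread over all libraries. Ighv1-74 had 16, 12, 42 and 28 counts in normoxia KO, against 8, 12, 16 and 10 in normoxia WT. Igkv14-111 had 13, 9, 10 and 13 counts in hypoxia KO and 14, 8, 23 and 13 in hypoxia WT.

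The V genes bound to single libraries, and the relatives that other libraries used, are shown by sequence because their letters show how far reads of such close copies can be told apart. Each line gives the first 280 bases of the V exon, 5′ to 3′, read from the GENCODE M21 transcripts (GRCm38, all on the minus strand). These are germline sequences of the reference and not the rearranged chains of these mice. Capitals mark the bases that differ within the pair. Igkv8-21 (chr6:70314928-70315207) had 0, 0, 109 and 1 counts in hypoxia KO, and Igkv8-27 (chr6:70171840-70172119) had 55, 82, 0 and 5. They differ at 28 of 280 bases, an identity of 90.0%, and their longest shared run is 68 bases.
Igkv8-21: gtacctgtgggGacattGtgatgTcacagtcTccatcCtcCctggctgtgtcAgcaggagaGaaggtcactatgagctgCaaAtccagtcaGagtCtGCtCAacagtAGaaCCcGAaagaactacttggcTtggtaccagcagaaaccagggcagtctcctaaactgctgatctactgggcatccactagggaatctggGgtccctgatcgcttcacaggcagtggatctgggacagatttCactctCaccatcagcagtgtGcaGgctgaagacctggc
Igkv8-27: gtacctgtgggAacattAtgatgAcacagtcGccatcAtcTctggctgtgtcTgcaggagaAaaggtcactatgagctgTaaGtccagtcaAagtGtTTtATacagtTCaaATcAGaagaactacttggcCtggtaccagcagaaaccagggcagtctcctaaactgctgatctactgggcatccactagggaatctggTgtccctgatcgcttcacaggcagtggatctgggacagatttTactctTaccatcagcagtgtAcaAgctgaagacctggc

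Igkv10-94 (chr6:68704526-68704805) had 5, 103, 1 and 0 counts in hypoxia KO, and 4, 3, 5 and 5 in normoxia KO. Igkv10-96 (chr6:68631981-68632260) had 18, 2, 8 and 4 counts in hypoxia KO, and 18, 12, 42 and 29 in normoxia KO, against 0 in each normoxia WT library. The 2 genes differ at 12 of 280 bases (95.7% identity), with a shared run of up to 82 bases, and still led in different libraries. How the authors counted reads that fit several V genes is not given in the sources used here, so counts of such copies may be split.
Igkv10-94: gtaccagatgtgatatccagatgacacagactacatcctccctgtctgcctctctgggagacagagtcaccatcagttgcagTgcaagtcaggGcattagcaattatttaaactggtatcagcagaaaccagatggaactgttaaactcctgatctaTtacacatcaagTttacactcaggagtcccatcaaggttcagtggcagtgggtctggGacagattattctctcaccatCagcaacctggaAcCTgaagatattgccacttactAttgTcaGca
Igkv10-96: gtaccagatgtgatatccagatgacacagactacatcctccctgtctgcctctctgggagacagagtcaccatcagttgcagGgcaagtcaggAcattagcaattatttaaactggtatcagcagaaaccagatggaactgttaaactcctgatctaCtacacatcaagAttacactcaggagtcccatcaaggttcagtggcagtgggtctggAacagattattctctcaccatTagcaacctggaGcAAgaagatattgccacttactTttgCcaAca

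Ighv10-1 (chr12:114479038-114479317) had 65, 94, 1 and 3 counts in hypoxia KO, against 0, 0, 0 and 1 in hypoxia WT. It followed Igkv8-27 across the libraries, since both were high in KO replicates 1 and 2 and low in replicates 3 and 4. Ighv5-16 had 7, 87, 5 and 0 counts in hypoxia KO, Ighv1-15 had 0, 0, 89 and 0, and Igkv3-12 had 2, 0, 1 and 55, so each of KO replicates 2, 3 and 4 held V genes that the others hardly had. The sequence of Ighv10-1 is given with no base in capitals.
Ighv10-1: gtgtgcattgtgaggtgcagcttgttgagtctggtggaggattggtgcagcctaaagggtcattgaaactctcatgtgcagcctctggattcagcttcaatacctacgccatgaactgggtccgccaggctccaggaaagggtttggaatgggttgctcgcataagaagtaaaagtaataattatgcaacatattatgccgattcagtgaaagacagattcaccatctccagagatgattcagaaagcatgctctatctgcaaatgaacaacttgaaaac

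**Figure D5:**
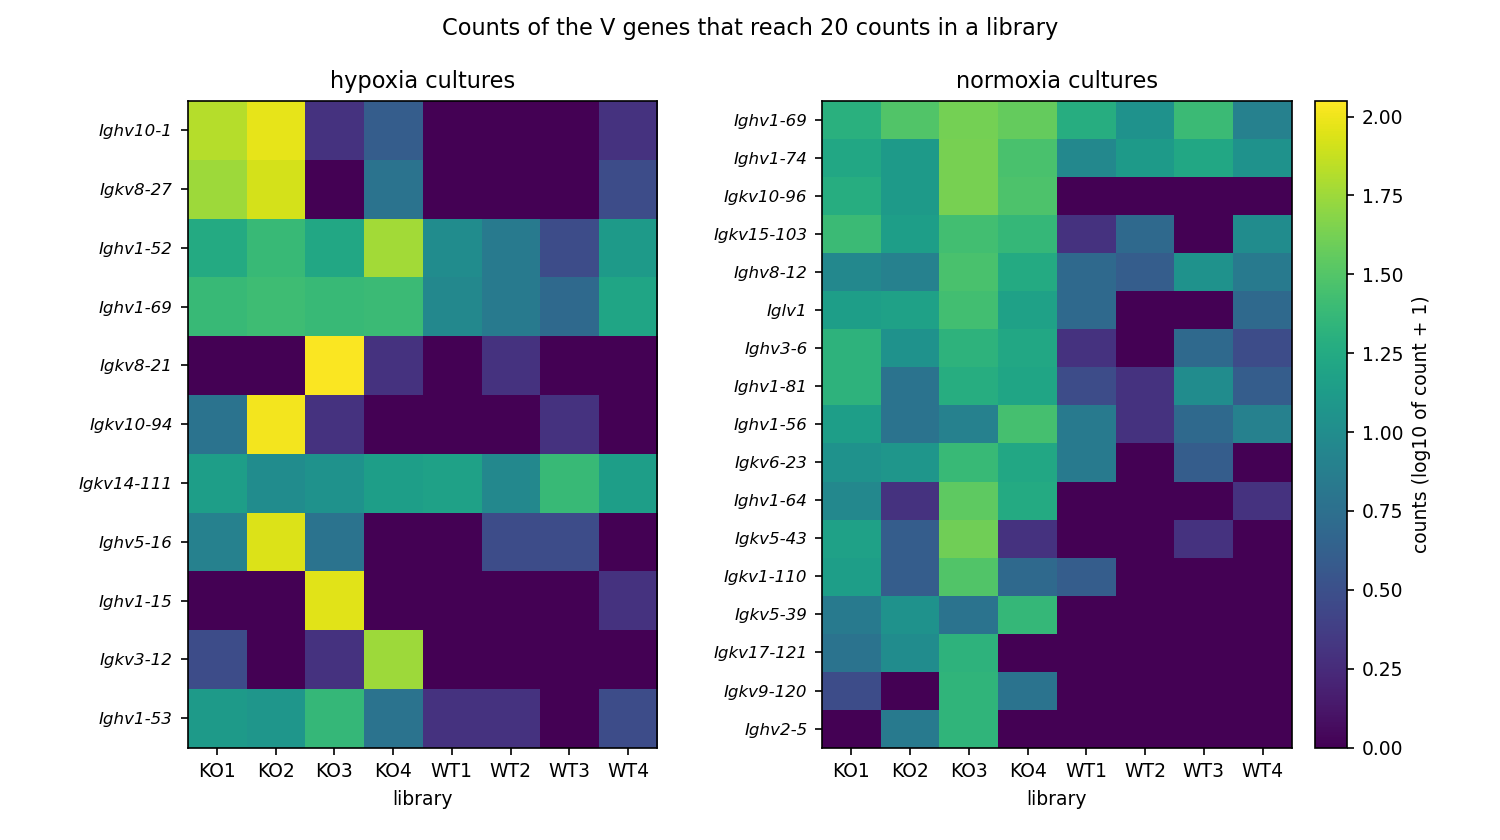
Counts of the 11 hypoxia and 17 normoxia V genes that reach 20 counts in a library, by library, with KO left of WT and colour on a log10 scale of count + 1. In hypoxia single KO libraries light up for Igkv8-21 (109 counts), Igkv10-94 (103 counts) and Ighv1-15 (89 counts). In normoxia the highest count of any V gene in a library is 42, and Ighv2-5 and Igkv9-120 have most of their counts in KO replicate 3.

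Oxygen was compared next, a contrast that did not choose the genes. Hypoxia and normoxia libraries differ also in the time their labels give (24 hours of hypoxia, day 4 of normoxia) and stand in separate tables. Oxygen, time and table thus cannot be told apart. Levels here are scaled over both tables together. In WT cultures 4 of the 5 genes tested were called higher in hypoxia, where 26% of all genes tested were called higher and 27.3% lower, and Jchain did not pass the filter. Ighm averaged 63.9 CPM in hypoxia WT and 34.5 CPM in normoxia WT (log2 fold change 0.89 ± 0.10, adjusted p = 1.79e-05), and Cd79b 6.86 and 2.72 CPM (1.33 ± 0.15, adjusted p = 1.73e-05). Igkc averaged 3.63 CPM in hypoxia WT and 1.66 CPM in normoxia WT (1.13 ± 0.25, adjusted p = 0.0022). For these 3 genes every hypoxia library was above every normoxia library, as for 23.6% of all genes tested (23.9% stood lower without overlap). Cd79a averaged 1.08 and 0.631 CPM with overlap (0.77 ± 0.26, adjusted p = 0.025), and it lost the call without hypoxia WT replicate 4 (adjusted p = 0.0843) or normoxia WT replicate 1 (adjusted p = 0.0707). Igha averaged 3.25 CPM in hypoxia WT and 1.71 CPM in normoxia WT and was not called (0.93 ± 0.51, adjusted p = 0.148).

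In KO cultures 2 of the 6 genes were called higher in hypoxia, where 24.9% of all genes tested were called higher and 23.1% lower. Ighm averaged 103 CPM in hypoxia KO and 58.9 CPM in normoxia KO (log2 fold change 0.81 ± 0.14, adjusted p = 0.00069), and Cd79b 6.43 and 2.43 CPM (1.40 ± 0.15, adjusted p = 1.91e-05), both without overlap, as 23.1% of all genes tested stood higher and 20.6% lower. Igha, Igkc, Jchain and Cd79a were not called. Cd79a averaged 1.27 CPM in hypoxia KO and 0.911 CPM in normoxia KO (0.48 ± 0.22, adjusted p = 0.0979). Igha averaged 31.1 CPM in hypoxia KO and 27.5 CPM in normoxia KO (0.18 ± 0.33, adjusted p = 0.685), Igkc 31.8 and 23.9 CPM (0.41 ± 0.33, adjusted p = 0.329) and Jchain 2.61 and 3.84 CPM (-0.55 ± 0.33, adjusted p = 0.194). The difference of the KO effects, hypoxia minus normoxia, was -0.77 ± 0.70 for Igha, -0.74 ± 0.52 for Igkc and -1.02 ± 0.69 for Jchain on the log2 scale. It was -0.10 ± 0.19 for Ighm, -0.32 ± 0.34 for Cd79a and 0.04 ± 0.21 for Cd79b. It rests on the 2 comparisons that chose the genes and is given with no test.

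Other genes of the B lineage were counted from lists of 48 genes in all (other immunoglobulin constant genes, B cell identity, B cell precursors and plasma cells). In hypoxia 27 passed the filter, of which 5 rose and 7 fell in KO, beside 34.9% of all genes called in either direction (17.4% higher, 17.6% lower). In normoxia 17 passed, of which 5 rose and 1 fell, beside 11.3% of all genes (7.13% higher, 4.17% lower). In tumor 18 passed, of which 2 rose and 2 fell, beside 6.32% of all genes (3.28% higher, 3.04% lower). The median log2 fold change of the listed genes tested was -0.12 in hypoxia, 0.06 in normoxia and -0.06 in tumor. Of the 10 other constant genes, 2 passed the filter in hypoxia (Ighg2b, which rose, and Ighg1), 2 in normoxia (Ighg2b and Ighg2c, described above) and 1 in tumor (Ighg2c, -0.24 ± 0.77, adjusted p = 0.909). The 2 in normoxia had at most 8 counts in any WT library, and Ighg2b in hypoxia had at most 1. Fcrla, among the 5 that rose in normoxia, had at most 5 counts in any WT library there. These genes passed the filter through their KO counts and could be called only higher, so their number is no support.

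Among the 16 B cell identity genes the clearest rise was that of Fcrla, an Fc receptor-like protein kept inside B cells. It averaged 9.64 CPM in hypoxia KO and 0.641 CPM in hypoxia WT (log2 fold change 3.90 ± 0.36, adjusted p = 3.44e-05), and 1.94 and 0.134 CPM in normoxia (3.80 ± 0.42, adjusted p = 0.000600). In normoxia it passed the filter through its KO counts, so the p-value there is no support. It also rose in tumor, with 167, 239 and 151 counts in KO against 36, 34 and 19 in WT (3.13 ± 0.25, adjusted p = 1.22e-05), where Igkc had a log2 fold change of -0.37. Of the 12 B cell identity genes tested in hypoxia, 2 were called higher in KO, Fcrla among them, and 4 lower. Cd22, an inhibitory receptor, averaged 2.02 CPM in hypoxia KO and 3.39 CPM in hypoxia WT (-0.75 ± 0.20, adjusted p = 0.0122), and Cd72, another inhibitory receptor, 1.10 and 2.07 CPM (-0.92 ± 0.22, adjusted p = 0.00875). Pax5, the transcription factor that sets B cell identity, fell with 17, 20, 14 and 12 counts in hypoxia KO, against 26, 30, 20 and 34 in hypoxia WT, where a KO and a WT library share the count of 20 (-0.74 ± 0.25, adjusted p = 0.0380). Over the 12 identity genes tested in hypoxia the median log2 fold change was -0.66, beside -0.01 over all genes tested. Among them Tnfrsf13c had 11, 9, 8 and 7 counts in hypoxia KO, against 15, 19, 13 and 19 in hypoxia WT. It passed the filter through its WT counts, so it is no support for a fall. Cd22 had a log2 fold change of -0.92 ± 0.29 in normoxia (adjusted p = 0.0586), which missed the threshold.

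Several defining B cell genes were near 0 in normoxia. Ms4a1, Fcer2a and Ly6d had at most 3 counts in every normoxia library of either genotype, and Pax5, Ebf1, Blk and Fcmr are not in that table. In hypoxia Ms4a1 had 31 counts over the KO libraries and 21 over the WT libraries. In tumor it had 39 counts in KO and 61 in WT. The B cell identity list, Fcrla included, summed to 17.4 to 30.6 CPM in hypoxia KO and 15.4 to 20.9 CPM in hypoxia WT, and to 10.1 to 14.2 CPM in normoxia KO and 7.83 to 10.9 CPM in normoxia WT. In tumor it summed to 125 to 144 CPM in KO and 173 to 211 CPM in WT, most of it Cd72, which fell in tumor KO (116 CPM in KO and 178 CPM in WT, -0.61 ± 0.09, adjusted p = 0.00141).

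Of the 10 B cell precursor genes, Erg, a transcription factor that early blood progenitors also express, rose in both KO cultures (hypoxia 1.19 ± 0.09, adjusted p = 6.43e-06, and normoxia 0.49 ± 0.12, adjusted p = 0.0230). Il7r, the interleukin 7 receptor, fell in hypoxia KO (18.4 CPM in KO and 35.5 CPM in WT, -0.95 ± 0.24, adjusted p = 0.0140) and in tumor KO (-0.60 ± 0.11, adjusted p = 0.00570). The surrogate light chain genes Vpreb1, Vpreb2, Vpreb3 and Igll1 had at most 3 counts in every normoxia library.

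Of the 12 plasma cell genes, 9 were tested in hypoxia, of which 1 rose and 2 fell in KO. In normoxia 8 were tested, of which 1 rose and 1 fell in KO, and in tumor 8 were tested, of which 1 rose and 0 fell in KO. The shares of all genes called are those given above for the B lineage lists. Tnfrsf13b, a receptor for B cell survival factors, was the one that rose in the cultures, with 127 CPM in KO and 89.4 CPM in WT in hypoxia (0.50 ± 0.07, adjusted p = 0.000294) and 127 and 96.0 CPM in normoxia (0.40 ± 0.08, adjusted p = 0.0123). Txndc5, an endoplasmic reticulum folding enzyme, fell in both (hypoxia -0.53 ± 0.07, adjusted p = 0.000294, and normoxia -0.31 ± 0.09, adjusted p = 0.0467). Prdm1, which encodes the plasma cell regulator Blimp-1, fell in hypoxia KO (-0.86 ± 0.20, adjusted p = 0.00712) and rose in tumor KO (0.45 ± 0.09, adjusted p = 0.00787). Mzb1, a chaperone of antibody assembly, had 8 counts over the hypoxia KO libraries and 6 over WT, and 3 and 1 in normoxia. Pou2af1, a B lineage coactivator, had 15, 17, 8 and 12 counts in hypoxia KO, against 7, 16, 4 and 17 in WT, and 4, 5, 5 and 5 in normoxia KO, against 1, 0, 1 and 1 in WT. Xbp1, Irf4, Sdc1 and Derl3 were not called in either culture, and myeloid cells also express several of these genes. The list summed to 623 to 706 CPM in hypoxia KO and 644 to 670 CPM in hypoxia WT, and to 567 to 727 CPM in normoxia KO and 641 to 674 CPM in normoxia WT, with overlap in both.

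Of the 10 B cell receptor signalling genes, which myeloid cells share, Pik3ap1, an adaptor of PI3 kinase, fell in both KO cultures (hypoxia -0.34 ± 0.06, adjusted p = 0.00152, and normoxia -0.46 ± 0.11, adjusted p = 0.0282). Dapp1, another adaptor, rose in hypoxia KO (0.43 ± 0.08, adjusted p = 0.00214). The other 8 were not called in hypoxia, nor the other 9 in normoxia, and 0 of the 10 were called in tumor.

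Markers of other cells that the samples could hold were counted beside these. Over all genes tested, 17.4% were called higher and 17.6% lower in hypoxia KO. The shares were 7.13% and 4.17% in normoxia KO, and 3.28% and 3.04% in tumor KO. The T cell list had 1 of 3 tested genes higher in hypoxia KO (Cd3d, 1.58 ± 0.30, adjusted p = 0.00225), 0 of 2 called in normoxia, and 7 of 11 lower in tumor KO, where the list summed to 11.9 to 17.6 CPM in KO and 30.2 to 64.4 CPM in WT. Cd3d had 4 to 8 counts in the hypoxia WT libraries and passed the filter through its KO counts, so its call is no support. Of the erythroid genes, 4 of 5 tested fell in hypoxia KO, with summed levels of 8.31 to 16 CPM in KO and 33.9 to 116 CPM in WT, and 3 of 5 rose in tumor KO. Of the plasmacytoid dendritic cell genes 3 of 7 fell in hypoxia KO, and 0 of 5 were called in normoxia and in tumor. Of the myeloid identity genes 8 of 10 rose in hypoxia KO and 3 of 10 in normoxia KO, and in tumor KO 1 rose and 1 fell of 7. Of the epithelial genes 1 of 3 rose and 1 fell in hypoxia KO, and 0 of 1 in normoxia and 0 of 2 in tumor were called. The part of these cell types, and of any B lineage cell carried over from the bone marrow, in the levels of Igha, Igkc and Jchain was not tested.

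The B lineage lists were also compared between the oxygen levels, with the same limits on time and table as above. In WT cultures 10 of 18 tested genes were higher in hypoxia and 1 lower, beside 53.3% of all genes called. In KO cultures 9 of 20 were higher and 3 lower, beside 47.9% of all genes. Some of the tested genes passed the filter through their hypoxia counts and could be called only higher, so these numbers are no support. In any normoxia WT library Ly6d had at most 1 count, Cd72 at most 3, and Fcrla and Tnfrsf13c at most 5. Cd72 had at most 7 counts in any normoxia KO library. Il7r averaged 37.6 CPM in hypoxia WT and 1.69 CPM in normoxia WT (log2 fold change 4.47 ± 0.22, adjusted p = 5.65e-08), and 18.8 and 2.23 CPM in KO cultures (3.08 ± 0.31, adjusted p = 1.77e-05). In KO cultures Ighg2b fell in hypoxia (2 CPM in hypoxia KO and 5.36 CPM in normoxia KO, -1.42 ± 0.43, adjusted p = 0.0186), and Ighg2c fell with 2 counts over the hypoxia KO libraries, against 298 over normoxia KO (adjusted p = 3.18e-05). On these pooled counts that is a ratio of 0.00513 per total counts, with a counting interval of 0.000619 to 0.0187, which leaves out the spread between libraries. Ighg2c passed the filter there through its normoxia KO counts, so its p-value is no support. The KO effect differed between the cultures for 1 of 24 tested B lineage genes, Cd72, beside 0.477% of all genes called (0.19% higher, 0.288% lower). Its difference, hypoxia minus normoxia, was -2.59 ± 0.50 (adjusted p = 0.0227), with 44, 28, 32 and 29 counts in hypoxia KO against 54, 86, 51 and 71 in hypoxia WT, and 7, 7, 5 and 6 in normoxia KO against 2, 2, 3 and 1 in normoxia WT. With each library left out it ranged from -2.85 to -2.38, and it missed the threshold without normoxia KO replicate 1 or 2 or normoxia WT replicate 1, 2 or 4 (adjusted p between 0.0544 and 0.0708). Cd72 passed the filter there through its hypoxia counts, and its normoxia libraries held 1 to 7 counts, so its p-value is no support.

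Within the groups, the antibody genes varied together from library to library. After the mean of each of the 4 culture groups was taken off the log2 CPM of the 16 culture libraries, Pearson's r was 0.94 between Igkc and Jchain, 0.79 between Igha and Igkc and 0.79 between Igha and Jchain. It was 0.27 between Igha and Ighm, and -0.19 between Igkc and Cd79b. These are descriptions over libraries that share their culture. The genes most like each member over the levels of the 16 libraries were Pi16, Chil5 and Slfn4 for Igha (r = 0.94, 0.94 and 0.93), Pi16, Grap and Fcgr2b for Igkc (r = 0.97, 0.96 and 0.95) and Chil5, Slfn4 and Ifi202b for Jchain (r = 0.97, 0.95 and 0.94). For Ighm they included Il18r1 and Mroh2a (r = 0.96 for both), for Cd79a Bicra, Prr33 and Myh10 (r = 0.92, 0.91 and 0.90), and for Cd79b Rpl10-ps1, Gm2710 and Rpl10-ps5 (r = 0.98, 0.98 and 0.97). Since KO and WT form separate clusters for Igha, Igkc and Jchain, these r over levels include the gap between genotypes. With the group means taken off, r ran from 0.52 (Pi16) to 0.61 (Slfn4) for the genes named with Igha, from 0.27 (Grap) to 0.63 (Fcgr2b) for Igkc, and from 0.47 (Ifi202b) to 0.74 (Chil5) for Jchain.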

How the data were processed

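The authors deposited raw counts per Ensembl gene for each of 3 experiments. The submitters' processing notes name Subread, featureCounts and DESeq2 and the build GRCm38.p6, with no versions. The authors also deposited tables of normalized signal, which are the same counts scaled by 1 factor a library (to a relative precision of 1e-09) and were not used for any value. The library kit is Takara SMART-Seq in the labels' protocols. The strand setting, and how reads fitting several genes were counted, are not given in the sources used here, so reads of overlapping or antisense genes and of near-identical V genes cannot be told apart. In the culture tables the KO columns bear a code. They were taken as KO by elimination, as the rest are named WT. No libraries of a group were near-copies (smallest chi-square over its degrees of freedom 4.91).

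In R 4.3.3, edgeR 4.0.16 was fitted to all genes of each comparison (filterByExpr by group, TMM scaling, robust quasi-likelihood test, Benjamini-Hochberg adjustment over all tested genes, threshold 0.05), and the fits were tested on simulated data. The test left 15018 genes in hypoxia, 13950 in normoxia and 14370 in tumor. Adjusted p-values in the text are from this test. Alternatives were median-ratio scaling, library size alone, no filter on low counts, DESeq2 1.42.0, the replicate number as a block and each library left out. Correlations used log2 CPM with a prior count of 2. V genes, positions and exon lengths are from GENCODE M21, which also named 4 listed genes per table that had no symbol. Shares of V counts have exact Clopper-Pearson 95% intervals (SciPy 1.17.1). The genes, the lists and the tests were chosen with earlier results of these data known. Named are the 6 genes, Vsir, up to 4 genes with the smallest p per list and comparison, the 3 V genes with most counts per group and the 3 genes most like each member, apart from items that are not reported here. Ighv2-5, Igkv9-120, Pax5, Ms4a1, Tnfrsf13c, Mzb1, Pou2af1, Xbp1, Irf4, Sdc1, Derl3, the precursor genes near 0 and the V genes bound to a single library were named after their values were seen.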

Additional observations from a re-analysis of the deposited data

Results flagged for a closer look

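The KO effect on Cd72, an inhibitory receptor of B cells named from the B cell identity list, differed between the cultures by the interaction term. The difference of the log2 fold changes, hypoxia minus normoxia, was -2.59 ± 0.50 (edgeR adjusted p = 0.0227). Cd72 had 28 to 44 counts in hypoxia KO against 51 to 86 in hypoxia WT, and 5 to 7 in normoxia KO against 1 to 3 in normoxia WT. It passed the filter on low counts through its hypoxia counts, so its p-value is no support. The threshold was missed without normoxia KO replicate 1 or 2 or normoxia WT replicate 1, 2 or 4 (adjusted p between 0.0544 and 0.0708, with differences from -2.59 to -2.38), alternatives run for this gene after seeing the data. Hypoxia and normoxia differ also in labelled time and table. In the culture groups no library stood apart from its group for the 6 genes, the summed V gene counts or the number of V genes with at least 3 counts. This was over 32 groups of values, of which chance would mark about 1 in 20. Single V genes were not put to this rule. The tumor groups of 3 libraries are too small for that rule and were not examined, and in them Igkc had 43, 44 and 0 counts in KO.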

How the results depend on the processing

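Of 143 alternative log2 fold changes of the 6 genes between the oxygen levels, 141 kept their side of the threshold, with the direction where one was called, and 2 were weaker. Both were Cd79a in WT hypoxia against normoxia, 0.58 without hypoxia WT replicate 4 and 0.67 without normoxia WT replicate 1 (range 0.58 to 0.91 with each library left out). With each library left out, Igha KO over WT ranged from 3.15 to 3.75 in hypoxia and 3.67 to 4.36 in normoxia, Igkc from 2.94 to 3.41 and from 3.61 to 4.19, and Jchain from 2.80 to 3.20 and from 3.67 to 4.71. Igkc in tumor ranged from -0.84 to 0.18, the highest value being that without KO replicate 3. These KO against WT values have no test. Without both normoxia KO replicate 4 and WT replicate 3, chosen after seeing the data, Igha had 4.38.

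Counts of called genes moved more. In normoxia KO against WT, 1577 genes were called, 2394 with DESeq2, 2881 without KO replicate 4 and WT replicate 3, and 469 to 2233 with each library left out (469 without WT replicate 1, 632 without WT 4, 696 without KO 3, 723 without WT 2). B lineage calls there went to 10 with no low-count filter (6 in the main result). In tumor, 908 were called, 1363 with no filter and 444 to 1072 with each library left out (444 without KO 1, 455 without KO 2, 515 without WT 2). B lineage calls in WT hypoxia against normoxia were 17 with no filter (11 in the main result). The interaction called 73 genes, 200 with DESeq2 and 40 to 100 with each library left out. Its B lineage calls (1 in the main result) were 2 with median-ratio scaling, library size alone or no filter, 3 with DESeq2 and 0 to 2 with each library left out. The cause of these moves was not tested.

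Correlations of same-numbered deviations ran from -0.16 to 0.02 in hypoxia, -0.06 to 0.37 in normoxia and 0.08 to 0.22 in tumor. The main test took the samples as unpaired, and whether the replicate numbers pair them in normoxia and tumor is not settled by these values. With the replicate block, 2266 genes were called in tumor (908 in the main result), 2278 in normoxia (1577), 3942 in hypoxia (5245) and 40 in the interaction (73). No call of the 6 genes between the oxygen levels changed, and the difference of Cd72 was -2.58 (adjusted p = 0.111).

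With a minimum of 1 count the mean number of V genes detected was 81.5 in hypoxia KO, 42.5 in hypoxia WT, 101.5 in normoxia KO, 29.3 in normoxia WT, 3.33 in tumor KO and 5.67 in tumor WT. With 10 counts it was 14.0, 1.5, 24.0 and 2.75 in the 4 culture groups in that order and 0 in tumor WT. KO stood above WT in both cultures at each minimum. Depth limits values at few counts, such as Igha, Jchain and Cd79a in tumor, with 0 to 12 counts a library.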
